A study of Mus musculus with 126 samples.

Results

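The endolymphatic sac of the mouse inner ear holds a minority of epithelial cells that transcribe Foxi1, a forkhead transcription factor. Here 2 sides were set against each other, chosen by their measured Foxi1 and Epcam values. Foxi1-high cells had Foxi1 at 10 FPKM or more. Other epithelial cells had Epcam, an epithelial adhesion molecule, at 1 FPKM or more and Foxi1 under 1 FPKM. FPKM is a fragment count scaled for transcript length and library size. Of 126 cells in the series, 113 met one of these rules, 16 as Foxi1-high cells and 97 as other epithelial cells. The remaining 13 cells had Epcam listed at 0, and 9 of them had the fibrillar collagen gene Col1a1 at 1 FPKM or more.

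All cells came from endolymphatic sacs of E14.5 embryos and were sequenced by Smart-seq2, a plate method for reading whole transcripts of single cells. The genotype label was wild type for 33 cells and Sox9Y440X/+, heterozygous for a Sox9 allele named by a codon change, for 93 cells. The Foxi1-high cells comprised 5 wild-type and 11 Sox9Y440X/+ cells, and the other epithelial cells comprised 27 and 70. No label names an animal or litter, so each genotype counts as 1 sample, cells are not replicates, and all values below are descriptions without a test.

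Foxi1 is known as a regulator of epithelial cells that secrete acid or base, among them the intercalated cells of the kidney, the narrow and clear cells of the epididymis and the ionocytes of the airway. Such cells carry the vacuolar proton pump (V-ATPase), built of a membrane sector (V0) and a cytoplasmic sector that splits ATP (V1), with several subunits made from genes restricted to acid-secreting cells. In the inner ear the Foxi1-dependent cells of the endolymphatic sac are linked to absorption of endolymph, and loss of the anion exchanger pendrin, encoded by Slc26a4, leads to an enlarged sac and deafness.

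Foxi1 (ENSMUSG00000047861.2) left a wide gap between the sides, which its values defined. The 16 Foxi1-high cells had 28.2 to 522.5 FPKM (median 257.4). The 2 lowest values inside the limit were 28.2 and 36.4 FPKM, the 2 highest outside it were 0.989 and 0.313 FPKM, and 0 cells lay from 1 to 10 FPKM. Epcam was at 193.6 to 1288.4 FPKM (median 565.1) in the Foxi1-high cells and at 53.1 to 1881.7 FPKM (median 721.9) in the other cells. The keratin genes Krt8 and Krt18 were at 1 FPKM or more in all 16 and all 97 cells, so both sides carried epithelial transcripts.

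The sides differed in how many genes were listed. Foxi1-high cells had a median of 5531 genes above 0 FPKM (3825 to 8246), against 4615 (2035 to 9358) in the other epithelial cells. A gene was compared when 50% of the cells of either side, or more, had it at 1 FPKM. Over these 4178 genes the median difference in mean log2(FPKM + 1) was 0.64. Differences below are Foxi1-high minus other epithelial cells less this median, and are called relative differences. A gene was called higher or lower at a relative difference of 2 or more in either direction, which is 4-fold on the log2(FPKM + 1) scale. With 0 FPKM throughout, a gene would have -0.64. Limiting the other side to its 74 cells within the listed-gene range of the Foxi1-high cells gave 147 higher and 131 lower genes, which hold 133 of the 143 higher and 112 of the 127 lower genes given below. The part of detection in the value of a single gene was not tested.

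Some cells stood apart. The FPKM of 2 Foxi1-high and 3 other epithelial cells summed to over 1000000, and without them 130 genes were higher and 126 lower. Transcripts of a Y-linked gene reached 1 FPKM in 32 of 33 cells labelled wild type and in 4 of 93 labelled Sox9Y440X/+, so embryo sex and genotype label largely coincided. Of these 4 cells, 2 (Sox9Y440X/+ cells 47 and 82) were Foxi1-high. Whether these 4 cells carry the right genotype label was not tested, so counts by genotype below may include mislabelled cells. Leaving out all 4 gave 117 higher and 123 lower genes, and left 9 Foxi1-high Sox9Y440X/+ cells. The sample titles also begin with P9 for all 93 Sox9Y440X/+ cells and with P10 for 32 of 33 wild-type cells. The labels do not define this prefix.

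The 9 highest named genes were, in order, Atp6v1c2, Dcn, Atp6v0d2, Coch, Nupr1, Muc20, Plet1, Slc26a4 and Car2, among them 2 restricted subunits of the proton pump, pendrin and carbonic anhydrase 2. Because promoters are where a forkhead factor could bind, RefSeq promoter windows (GRCm38.p6, 300 bases around the gene's start) were searched for TGTTTAC, a core sequence recognised by many forkhead proteins, and its reverse complement GTAAACA. Of 25 genes looked up, 18 had a window among those searched, with 22 windows. The promoters of the remaining genes were not searched, so the counts say nothing about them. The motif was in 2 of the 22 windows (9.09%) and in 1199 of the 32851 windows searched (3.65%). Both matches are printed here because they belong to genes of the Foxi1-high side, and the Slc26a4 window because that gene is central below. Capitals mark the motif, and the sequences run 5′ to 3′ on the strand of the gene.

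Atp6v1b1, chr6:83742767-83743066, plus strand: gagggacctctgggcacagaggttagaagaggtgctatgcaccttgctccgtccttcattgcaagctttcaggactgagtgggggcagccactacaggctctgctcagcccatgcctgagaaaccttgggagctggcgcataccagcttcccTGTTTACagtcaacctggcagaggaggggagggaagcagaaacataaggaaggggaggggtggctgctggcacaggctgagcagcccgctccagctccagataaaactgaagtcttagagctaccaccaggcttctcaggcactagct

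Muc20, chr16:32797386-32797685, minus strand: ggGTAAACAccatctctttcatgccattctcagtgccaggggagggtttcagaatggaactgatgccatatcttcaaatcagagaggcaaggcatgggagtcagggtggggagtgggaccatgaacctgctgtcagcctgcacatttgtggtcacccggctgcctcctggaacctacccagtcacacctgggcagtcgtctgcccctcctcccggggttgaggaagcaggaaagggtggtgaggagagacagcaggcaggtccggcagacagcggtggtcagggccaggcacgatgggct

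Slc26a4, chr12:31559935-31560234, minus strand: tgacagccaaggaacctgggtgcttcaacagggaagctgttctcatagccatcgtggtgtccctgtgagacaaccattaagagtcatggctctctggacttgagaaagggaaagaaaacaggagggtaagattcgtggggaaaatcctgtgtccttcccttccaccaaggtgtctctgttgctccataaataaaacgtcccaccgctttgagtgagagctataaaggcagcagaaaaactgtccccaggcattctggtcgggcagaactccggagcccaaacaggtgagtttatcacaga

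The Atp6v1b1 match lies at -98 relative to the gene's start and reads TGTTTAC on the gene's strand. The Muc20 match lies at -248 and reads GTAAACA. The windows of Slc26a4, Coch and Atp6v1c2 held neither form. The shorter TGTTTA or its reverse TAAACA was in 5 of the 22 windows (22.7%) and in 4416 of all windows searched (13.4%). A match of letters is no binding site, and its lack in these 300 bases says nothing about sites elsewhere.

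Of the 4178 compared genes, 143 were called higher in Foxi1-high cells (3.42%) and 127 lower (3.04%). Foxi1 chose the sides and, with Epcam, was left out. Of the 143, 114 reached the 50% limit through the Foxi1-high cells only, so that they had to differ, and 68 of the 127 reached it through the other cells only. The balance of higher and lower depends on the zero. Setting it at the 530 genes at 1 FPKM or more in 90% of the cells of each side, whose relative median was -0.56, gave 291 higher and 63 lower. Differences of log2 mean FPKM gave 103 and 43, no filter on low values gave 348 and 66, and a filter of 5 FPKM on the mean gave 223 and 93. In 0 compared genes did the ranges of the sides part completely, so each compared gene named below overlapped between them. Over the 18082 genes that reached 1 FPKM in any cell, 147 were higher (0.813%) and 182 lower (1.01%); the lists below are counted over those genes.

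**Figure D1:**
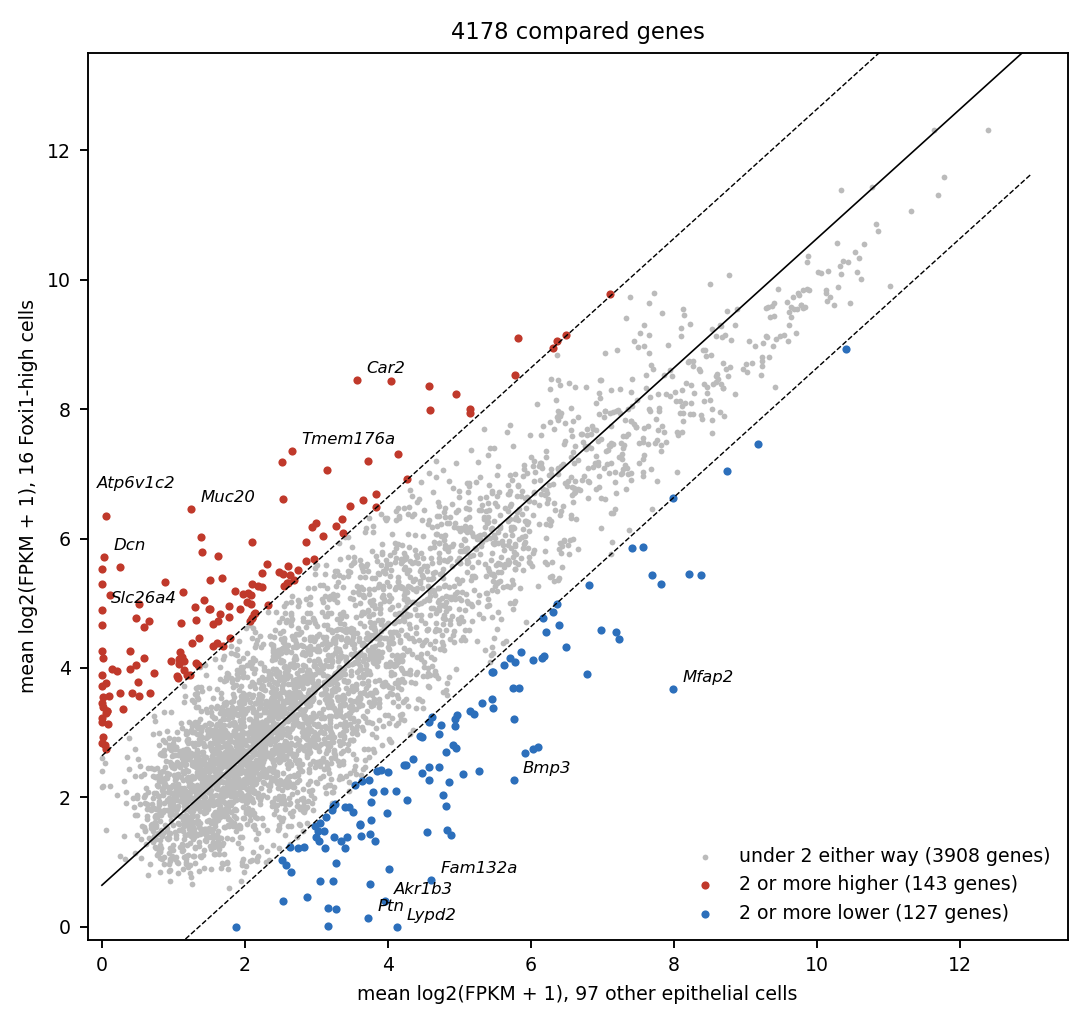
Mean log2(FPKM + 1) of the 4178 compared genes in 97 other epithelial cells (x axis) and 16 Foxi1-high cells (y axis); the solid line marks the median difference of 0.64, the dashed lines a relative difference of 2 either way. The 143 higher genes (red) include Atp6v1c2, Dcn and Slc26a4 at the left edge, where the other cells have little or no signal, and Car2 further right, and the 127 lower genes (blue) spread over a wide range of levels.

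The 5 V-ATPase subunits of acid-secreting cells were all called higher, with a median relative difference of 3.25. With a pseudocount of 10 this held for 2 of the 5 (median 1.68), and in wild-type cells alone for 3 of the 5 (median 2.32). Atp6v1c2 (ENSMUSG00000020566.18, mm10 chromosome 12, 17284721 to 17329359), the C2 subunit of the V1 sector, was at 0 to 1328 FPKM (median 454.2) in Foxi1-high cells and at 0 to 23.9 FPKM (median 0) in the other cells. It was detected, meaning at 1 FPKM or more, in 11 of 16 Foxi1-high cells (68.75%, exact Clopper-Pearson 95% interval 41.3 to 88.98%) and in 2 of 97 other cells (2.06%, 0.251 to 7.25%). Its relative difference was 5.64, the largest of all compared genes that the naming rule admits. Such intervals cover counting error only.

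Atp6v0d2 (chromosome 4, 19876841 to 19922605), the d2 subunit of the V0 sector, was found in the same 11 cells and reached 570 FPKM (median 203.0). It was listed at 0 in all 97 other cells, and a count of 0 there allows up to 3.09%. Such limits for a count of 0 are 3 divided by the number of cells. The exact 95% interval reaches 3.73% here, and for 0 of 16 cells it reaches 20.6% where the simpler limit is 18.75%. Atp6v0d2 had a relative difference of 4.88. The remaining restricted subunits were lower and more scattered. Atp6v0a4, the a4 subunit of the V0 sector, was detected in 10 of 16 cells at up to 141.5 FPKM (median 41.6; relative difference 3.25). Atp6v1b1, the B1 subunit of the catalytic V1 sector, which is mutated in a renal acidosis with deafness, was detected in 10 of 16 cells at up to 184.6 FPKM (median 25.9; 2.90). Atp6v1g3, the G3 stalk subunit, was detected in 8 of 16 cells at up to 363.9 FPKM (median 2.65; 2.81). None of these 3 genes reached 1 FPKM in any of the 97 other cells. The pump genes therefore marked most, not all, of the Foxi1-high cells, and almost none of the others.

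Some subunits that every cell uses were called higher too. Of 17 ubiquitous V-ATPase genes, 6 were called higher and 0 lower, 15 lay above 0, and the median relative difference was 1.55. Atp6v1e1, the E1 stalk subunit, was at 73.6 to 1089 FPKM (median 400.3) in all 16 Foxi1-high cells and at 0 to 347.9 FPKM (median 47.04) in the others, a relative difference of 3.74. Atp6v1h, Atp6v0b, Atp6v1a, Atp6v1d and Atp6v0c followed at 3.27, 2.63, 2.60, 2.17 and 2.05. The c-ring gene Atp6v0c had a median of 1273 FPKM against 160.4 FPKM. At the other end, Atp6v1f, Atp6v0a2 and Atp6v0e2 had 0.05, -0.02 and -0.16. The housekeeping forms thus differed gene by gene, from nearly level to more than the restricted Atp6v1b1.

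**Figure D2:**
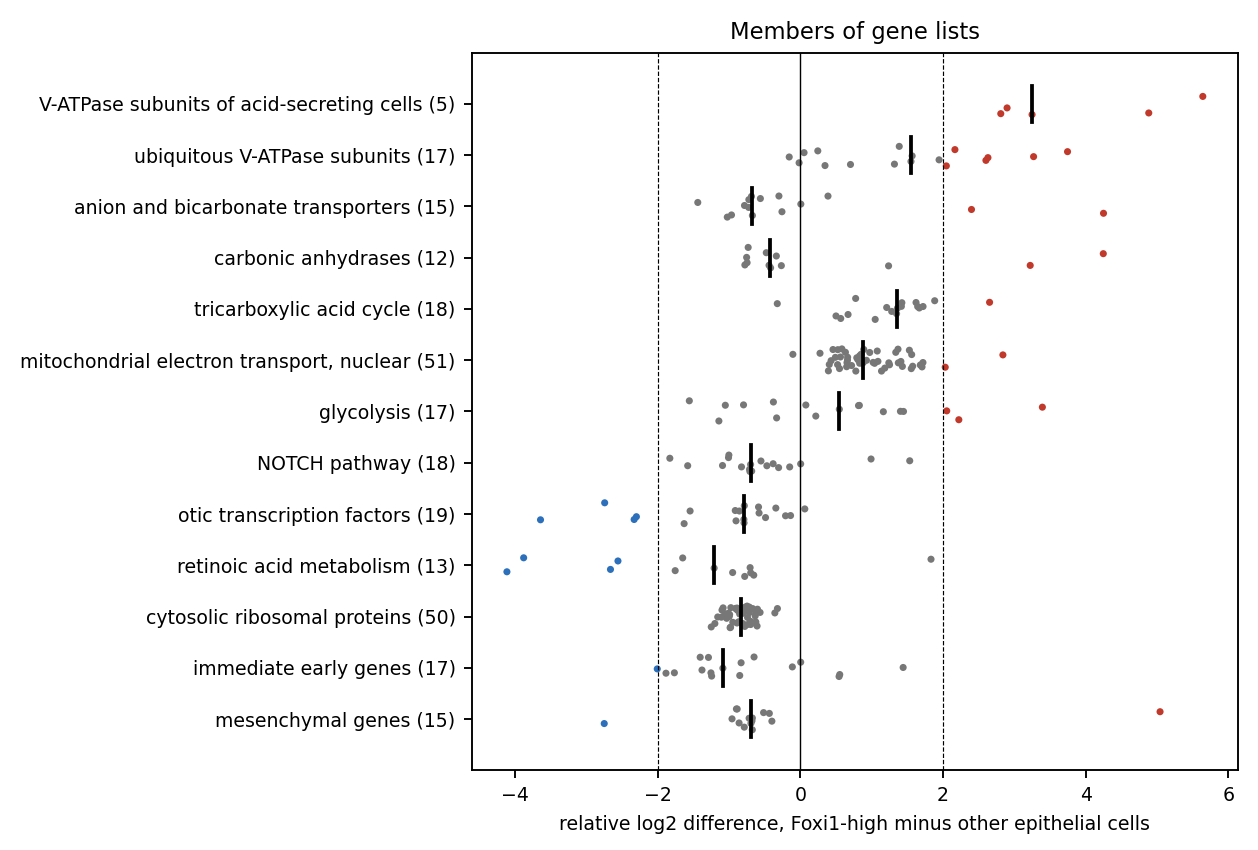
Relative log2 difference of each member of 13 gene lists, Foxi1-high minus other epithelial cells; points are genes at 1 FPKM or more in any of the 113 cells, bars are list medians, dashed lines mark 2 either way, and the number of genes is in parentheses. The restricted pump subunits lie furthest right (median 3.25), and retinoic acid genes furthest left (median -1.21).

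Base transport rested on few genes. Of 15 anion and bicarbonate transporters with signal, 2 were called higher and 0 lower, and the list's median was -0.67, near the -0.64 of a gene that no cell transcribes. Slc26a4 (chromosome 12, 31519827 to 31559969) was at 0 to 2128 FPKM (median 113.6) in Foxi1-high cells and listed at 0 in all 97 others. It was detected in 9 of 16 cells (56.25%, 29.9 to 80.2%), with a relative difference of 4.25. Slc4a9, an anion exchanger of kidney intercalated cells, was detected in 7 of 16 cells at up to 527.1 FPKM and in 0 of 97 (relative difference 2.40). Slc26a7, an exchanger of acid-secreting intercalated cells, was listed at 0 in all 16 Foxi1-high cells, a count that allows up to 18.75%. The bicarbonate exchanger Slc4a2, detected in 5 of 16 and 29 of 97 cells, had -0.72, and Cftr, a chloride channel, was detected in 2 of 16 and 2 of 97 cells.

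Of 12 carbonic anhydrases with signal, which make bicarbonate and protons from CO2 and water, 2 were called higher. The cytosolic Car2 was at 8.63 to 1379 FPKM (median 428.7) in all 16 Foxi1-high cells and at 0 to 1075 FPKM (median 22.3) in the others, of which 57 of 97 had it (relative difference 4.25). The secreted Car6 was detected in 11 of 16 against 6 of 97 cells (3.22). The membrane-bound Car12 had 1.24, detected in 7 of 16 against 6 of 97 cells. Car2 was thus shared with most other epithelial cells at a lower level, whereas Slc26a4 and Slc4a9 were not detected in them.

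Bsnd, which encodes barttin, a subunit of chloride channels, was called higher. It was at 0 to 164.0 FPKM (median 20.7) in Foxi1-high cells and at 0 in all 97 others, detected in 8 of 16 and 0 of 97 cells (relative difference 2.58). Of 21 sodium and water transport genes, only Slc9a3r1, an apical scaffold protein, was called (2.36). The sodium pump subunit gene Atp1b1 had 1.01.

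Hmx2, Tfcp2l1 and Elf3 were called higher among 16 transcription factors of ionocytes and intercalated cells, and none lower. The list's median was -0.09, with 7 of 16 above 0, and a pseudocount of 10 left 0 called. Hmx2, a homeobox factor of the vestibular system, was at 0 to 190.0 FPKM (median 52.3), detected in 11 of 16 and 1 of 97 cells (relative difference 3.50). Tfcp2l1, a factor of the kidney collecting duct, was detected in 11 of 16 and 6 of 97 cells (3.10). Elf3, an epithelial ETS factor, was at 12.4 to 370.7 FPKM in all 16 cells and was detected in 51 of 97 others (2.31). Hmx3, the neighbour of Hmx2, was detected in 5 of 16 cells at up to 18.3 FPKM and in 0 of 97, with a relative difference of 0.35. Hmx2 lies within the span of Fgfr2 in the annotation, and without a stated strand setting its reads cannot be told apart from those of Fgfr2.

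Coch and Dcn were among the highest genes and encode secreted matrix proteins. Coch (chromosome 12, 51593341 to 51605773), which encodes cochlin, an extracellular protein of the inner ear, was at 0 to 1406 FPKM (median 151.7) in Foxi1-high cells and at 0 in all 97 others. It was detected in 10 of 16 cells (62.5%, 35.4 to 84.8%), with a relative difference of 4.66. Dcn, the proteoglycan decorin, was at 0 to 1575 FPKM (median 236.7), detected in 10 of 16 and 1 of 97 cells (5.04).

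Dcn is also a marker of mesenchyme, so the whole list of 15 mesenchymal genes was read in the same cells. Its summed level was 0 to 1578 FPKM (median 351.3) in Foxi1-high cells and 0 to 1182 FPKM (median 75.9) in the others. These sums include Dcn itself. Without it, the remaining 14 genes summed to 0 to 351.9 FPKM (median 9.87) in Foxi1-high cells and 0 to 1173 FPKM (median 75.9) in the others. The collagen genes Col3a1, Col6a1 and Col6a3 and the receptors Pdgfra and Pdgfrb were listed at 0 in all 16 Foxi1-high cells. Col1a1 did not exceed 1.62 FPKM there, and Vim was called lower (-2.75). Of the 15 genes, 7 were at 0 in all Foxi1-high cells, while 3 or more were detected in 4 of 16 Foxi1-high and 11 of 97 other cells and 5 or more in 0 of 16 and 1 of 97. The part of mesenchymal RNA in the Dcn value was not tested. Of 9 endothelial and 11 immune genes, 2 and 1 reached 1 FPKM in any Foxi1-high cell, and of 9 erythroid genes 0 did. In the other epithelial cells 4, 2 and 7 did. Of 11 glial and neural crest genes, 5 reached 1 FPKM in any Foxi1-high cell and 7 in any other cell. At least 3 of them were detected in 2 of 16 and 12 of 97 cells. Of 10 neuronal genes, 2 reached 1 FPKM on each side, and 13 of 16 and 94 of 97 cells had none.

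The remaining leading genes are less tied to ion transport. Nupr1, a small stress-induced nuclear protein (relative difference 4.65), Plet1, a surface protein of epithelial progenitors (4.38), and Stap1, a signalling adaptor (4.02), were each detected in 11 of 16 cells. In the other cells they were detected in 4, 3 and 0 of 97. Insrr, an insulin receptor relative that senses alkaline pH, was detected in 11 of 16 and 0 of 97 cells at up to 248.4 FPKM (3.62). Gsn, the actin-severing protein gelsolin, was detected in 12 of 16 and 24 of 97 cells, Sh3bgrl2 in 14 and 12 (3.82) and Tmem117, a membrane protein, in 11 and 9 (3.67).

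A second set was present in at least 14 of the 16 Foxi1-high cells, and its first 3 genes in all 16. Of the named genes given above, Car2 and Atp6v1e1 (16 of 16) and Sh3bgrl2 (14 of 16) reached the same limit. Muc20, a membrane mucin, was at 2.20 to 483.1 FPKM (median 95.5), detected in 16 of 16 and 22 of 97 cells (relative difference 4.56). Tmem176a, a membrane protein, was at 35.6 to 1226 FPKM (median 154.1), in 16 of 16 and 42 of 97 cells (4.06). Serpinb6b, an intracellular protease inhibitor, was at 5.26 to 485.8 FPKM (median 256.5), in 16 of 16 and 37 of 97 cells (4.03). Tmem213 (3.79) was in 15 of 16 and Serpinb9, another intracellular protease inhibitor (3.76), in 14 of 16 cells. Each gene of this second set was also found in 17 to 42 of the 97 other cells, with a median of 0 FPKM there.

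Several of these genes overlap another gene in the annotation, which makes their values uncertain: Atp6v1c2 and Pdia6, Muc20 and Muc4, Plet1 and Plet1os, Tmem176a and Tmem176b, Tmem213 and Atp6v0a4, Atp6v1e1 and Slc25a18, Tmem117 and Nell2, and Insrr and Pear1. Of the 143 higher genes, 30 had such an overlap.

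The 16 cells were not alike. Atp6v1c2 and Atp6v0d2 were both detected in 11 cells, 3 wild-type and 8 Sox9Y440X/+ (6 without the cells that have a Y-linked gene), and neither was in the other 5, which were wild-type cells 22 and 29 and Sox9Y440X/+ cells 35, 37 and 67. Slc26a4 and Coch were listed at 0 in those 5 as well, so Foxi1 was the only one of the 5 markers they carried. Their Foxi1 values were 28.2 (wild-type cell 29), 36.4 (Sox9Y440X/+ cell 35), 43.2 (Sox9Y440X/+ cell 37), 83.6 (Sox9Y440X/+ cell 67) and 146.6 FPKM (wild-type cell 22). They include the 4 cells with the least Foxi1. Their listed genes ran from 4388 to 6013, within the range of the other 11 (3825 to 8246).

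These 5 cells, singled out after their values were seen, shared some of the leading genes with the other 11. Muc20 (34.5 to 123.2 FPKM), Car2 (60.7 to 793.0 FPKM), Tmem176a (62.2 to 242.8 FPKM), Serpinb6b (5.26 to 351.4 FPKM), Atp6v1e1 (73.6 to 241.6 FPKM), Tmem213 (7.42 to 59.5 FPKM) and Elf3 (18.7 to 211.9 FPKM) were detected in all 5. Dcn, Stap1, Tmem117, Insrr, Hmx2, Tfcp2l1, Slc4a9 and Bsnd were listed at 0 in all 5. In the other 11 cells, Stap1, Tmem117, Insrr, Hmx2 and Tfcp2l1 were each detected in 11 of 11.

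They also had genes that were low or at 0 in most of the other 11. Mfap2 was at 123.0 to 411.2 FPKM in 5 of 5 and was detected in 4 of 11 of the rest. Rdh10 was at 85.5 to 208.5 FPKM in 5 of 5 and detected in 2 of 11. Bmp3 was at 29.4 to 91.5 FPKM in 5 of 5 and detected in 2 of 11. Oc90, an otoconial protein of the sac, was at 169.2 to 1875 FPKM in 4 of 5 and detected in 5 of 11. Those 5 of 11 were wild-type cells 14, 27 and 32 and Sox9Y440X/+ cells 47 and 82, the ones with a Y-linked gene. All 5 wild-type Foxi1-high cells thus had Oc90, with or without the pump subunits. Sox9Y440X/+ cells 35 and 37 had Oc90 without a Y-linked gene. Whether Oc90 follows the pump genes, the genotype label or sex was not tested. Aldh1a1, a retinaldehyde dehydrogenase, was at 253.2 to 481.5 FPKM in 5 of 5, but it was also detected in 9 of 11, at up to 909.8 FPKM. The exception was Sox9Y440X/+ cell 67, with Oc90 at 0, Atp6v0a4 at 65.9 FPKM and Atp6v1b1 at 11.3 FPKM. Counted over the 20 highest named genes, the 5 cells had 6, 8, 8, 9 and 8 genes in the order of their Foxi1 values above, the other 11 had 16 to 20, and the other epithelial cells had 0 to 8 (median 3). The 20 genes were chosen as highest in these Foxi1-high cells, so the choice itself sets much of this spread.

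**Figure D3:**
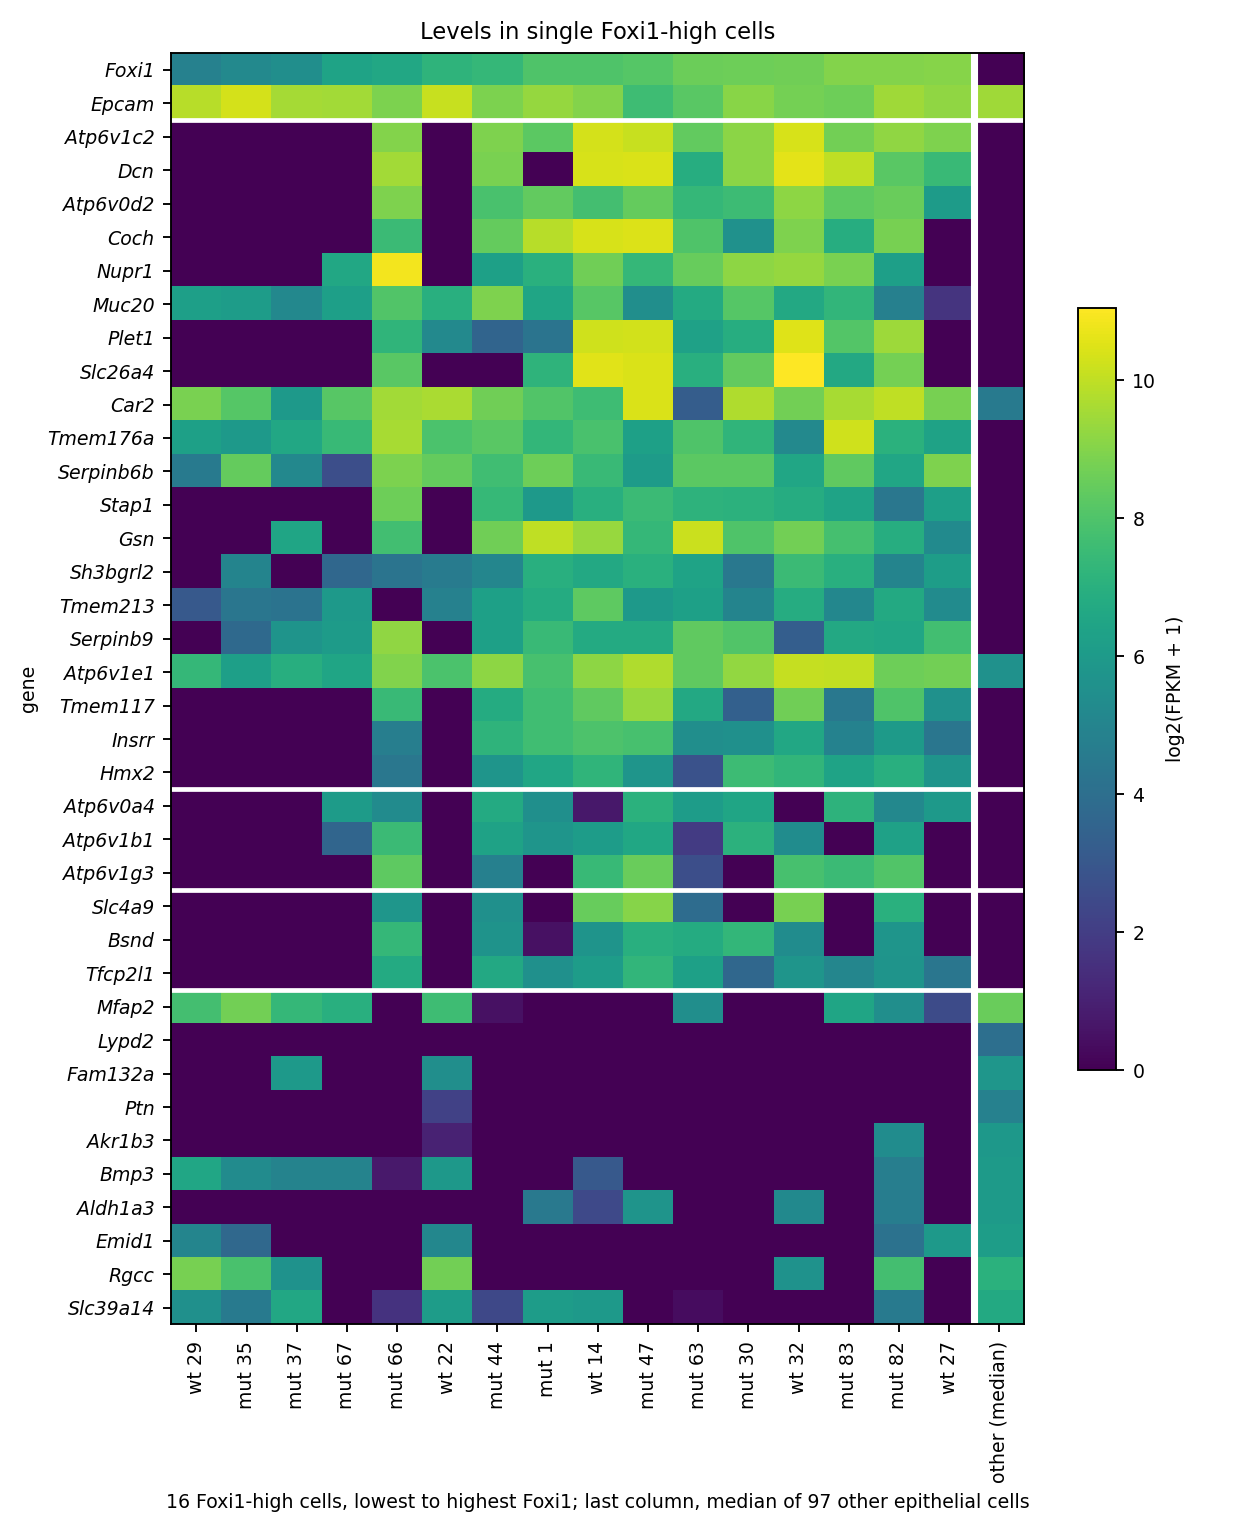
Colour gives log2(FPKM + 1) for genes (rows) in the 16 Foxi1-high cells (columns), ordered from the lowest (28.2 FPKM) to the highest (522.5 FPKM) Foxi1; wt is wild type, mut is Sox9Y440X/+, and the last column is the median of 97 other epithelial cells. From top to bottom the blocks are Foxi1 and Epcam, the 20 highest named genes, 3 further restricted pump subunits, 3 transport and factor genes, and the 10 lowest named genes; wild-type cells 22 and 29 and Sox9Y440X/+ cells 35, 37 and 67 lack Atp6v1c2 and Atp6v0d2.

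Cells with the pump subunits differed among themselves as well. Wild-type cell 27 had the highest Foxi1 (522.5 FPKM) and Atp6v1c2 at 487.4 FPKM, with Slc26a4 and Coch at 0 and Oc90 at 1649 FPKM. Sox9Y440X/+ cell 44 had Coch at 345.1 FPKM and Slc26a4 at 0. Slc26a4 was highest in wild-type cells 32 (2128 FPKM) and 14 (1510 FPKM) and Sox9Y440X/+ cell 47 (1365 FPKM), where Slc4a9 was at 441.0, 357.5 and 527.1 FPKM. In the other 6 cells with Slc26a4 it was at 101.2 to 426.7 FPKM, and Slc4a9 did not exceed 127.1 FPKM in any other cell. Only 9 of 16 cells carried all 5 markers.

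The genes lower in Foxi1-high cells include several that most other epithelial cells carried. Mfap2, a protein of elastic microfibrils, was at 0 to 411.2 FPKM (median 23.8) in Foxi1-high cells and 0 to 2266 FPKM (median 372.1) in the others, detected in 9 of 16 and 93 of 97 cells (relative difference -4.95). Bmp3, a ligand of the BMP family, was detected in 7 of 16 and 90 of 97 cells (-4.13). Slc39a14, a zinc transporter, was detected in 9 of 16 and 91 of 97 cells (-3.92). Rgcc, a regulator of the cell cycle, and Emid1, a secreted EMI-domain protein, had -3.96 and -3.97.

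Other low genes were carried by a part of the other epithelial cells. Lypd2, a surface protein of the Ly6 family, was listed at 0 in all 16 Foxi1-high cells, a count that allows up to 18.75%, and was detected in 50 of 97 others at up to 1724 FPKM (-4.77). Fam132a, a secreted C1q-domain protein, was detected in 2 of 16 and 65 of 97 cells (-4.53). Ptn, the growth factor pleiotrophin, was detected in 1 of 16 and 56 of 97 cells (-4.22), and Akr1b3, aldose reductase, in 2 of 16 and 58 of 97 cells (-4.20).

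A part of the retinoic acid genes was called lower. Of 13 with signal, 4 were called lower and 0 higher, with a list median of -1.21. Aldh1a3, which makes retinoic acid, was at 0 to 52.4 FPKM (median 0) in Foxi1-high cells and 0 to 2370 FPKM (median 64.9) in the others, detected in 5 of 16 and 56 of 97 cells (-4.11). Rdh10, which makes its precursor retinaldehyde, was detected in 7 of 16 and 89 of 97 cells (-3.88). Stra6, the gene of the retinol uptake receptor, had -2.56 and was detected in 0 of 16 and 33 of 97 cells. Aldh1a1, a second enzyme of the same step, went the other way at 1.83, detected in 14 of 16 and 47 of 97 cells. The Foxi1-high cells thus had transcripts of one of these dehydrogenases more often than of the other.

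**Figure D4:**
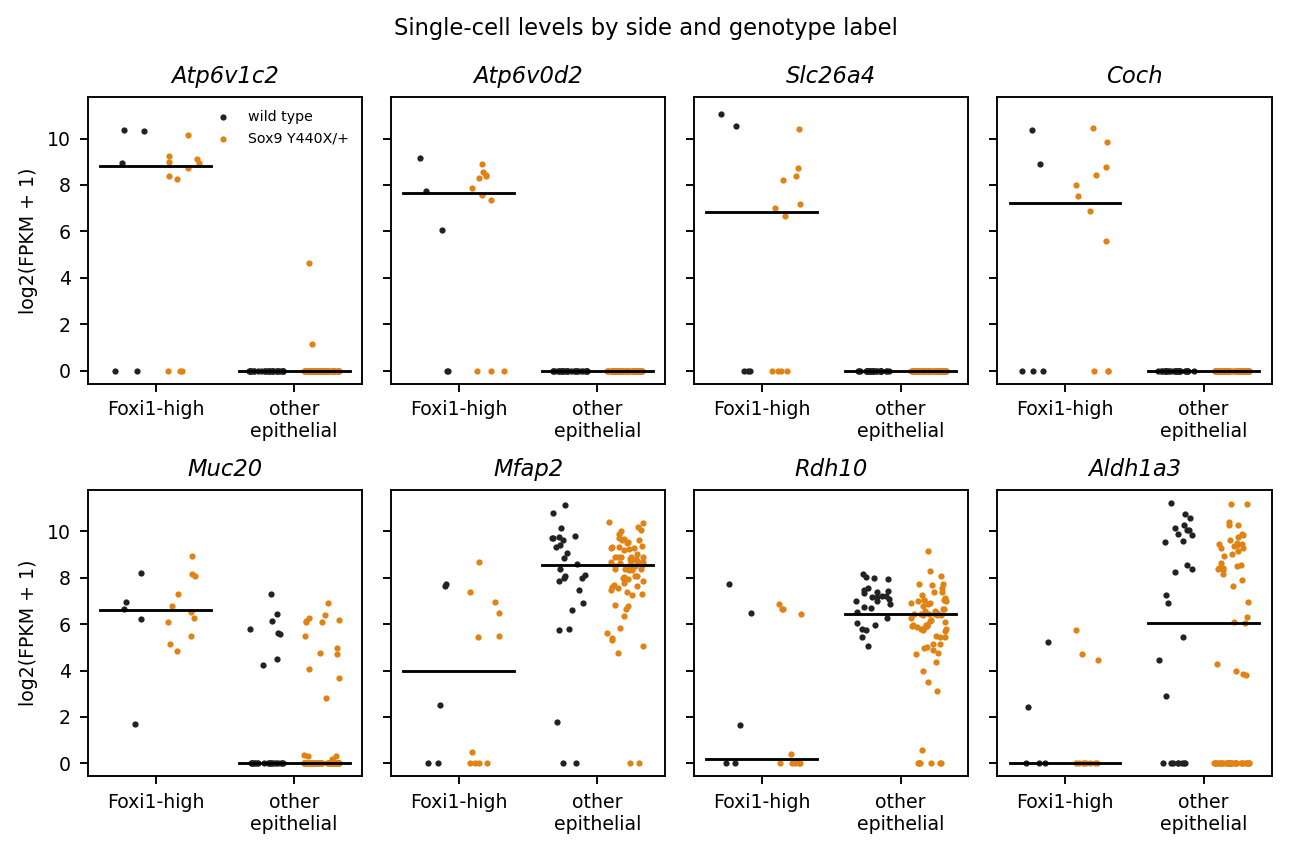
Each point is the log2(FPKM + 1) of 1 cell for the gene in the panel title, by side and genotype label (wild type black, Sox9Y440X/+ orange); bars are medians over both genotypes. The upper row shows genes detected in 9 to 11 of 16 Foxi1-high cells and at most 2 of 97 others, the lower row Muc20, which is in all 16, and the low genes Mfap2, Rdh10 and Aldh1a3, which reach into both sides.

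Several patterning and adhesion genes were called lower as well. Of 19 otic transcription factors, 4 were called lower and 0 higher: the homeobox genes Msx1 (-3.64, detected in 1 of 16 and 54 of 97 cells), Lmx1a (-2.74), Msx2 (-2.33) and Dlx5 (-2.30). Of 27 WNT pathway genes, 3 were called lower, namely the WNT inhibitor Notum (-2.98), the secreted modulator Sfrp2 (-2.30) and the cyclin gene Ccnd1 (-2.09). N-cadherin (Cdh2) was detected in 6 of 16 and 83 of 97 cells (-3.59), one of 5 adhesion and keratin genes called lower, with Krt19, Cdh3, Cadm2 and Cadm1. Of 22 tight junction genes, 2 were called lower and 0 higher. Cldn9 was listed at 0 in all 16 cells (-2.72), Cldn3 was in all cells at a lower level (-2.34), and Cldn8, which was not called, had 1.33. The lower calls in these lists depended on the setting. A pseudocount of 10 left 0 in each list. A pseudocount of 0.1 gave 6 otic, 7 WNT, 7 adhesion and keratin and 4 tight junction genes. The zero at genes in 90% of both sides gave 2, 1, 1 and 1.

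Of 18 NOTCH pathway genes with signal, 0 were called in either direction. The ligand genes Jag1 and Dll1 had 1.53 and 0.99, and the receptor gene Notch1 and the target gene Hey1 had -1.83 and -1.58. Dll1 was detected in 6 of 16 and 1 of 97 cells and Jag1 in 12 of 16 and 38 of 97. Notch1 was detected in 4 of 16 and 59 of 97 cells and Hey1 in 0 of 16 and 16 of 97. Over the alternative settings 0 to 2 NOTCH genes were called higher and 0 to 3 lower, the most under log2 mean FPKM and a pseudocount of 0.1.

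Sox9, the gene that carries the allele, was detected in all 16 Foxi1-high cells at 6.28 to 28.1 FPKM (median 10.7) and in 88 of 97 others (median 10.1), a relative difference of -0.21. A level of mRNA does not show the allele. Among the Foxi1-high cells its relative Sox10 was found in 4 of the 5 labelled wild type and in 1 of the 11 labelled Sox9Y440X/+, namely cell 82 (6.62 FPKM). Cell 82 has a Y-linked gene and the most listed genes of the Foxi1-high cells (8246). Sox9Y440X/+ cell 47, which has a Y-linked gene too, had Sox10 at 0. Whether Sox10 follows the genotype label was not tested.

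Genes of mitochondrial energy supply lay above the zero as groups while few were called. Of 51 nuclear electron transport genes, 50 lay above 0 and 2 were called higher, Ndufa9 (2.84) and Ndufa10 (2.03), with a median of 0.88. Of 18 tricarboxylic acid cycle genes, 17 lay above 0 and 1, Idh3a (2.65), was called higher, with a median of 1.36. In the wild-type cells alone the medians were 0.62 and 0.50, with 43 of 51 and 16 of 18 genes above 0. Of 17 glycolysis genes, Pfkp (3.39), Pgk1 (2.22) and Ldhb (2.05) were called higher and 0 lower. The 50 cytosolic ribosomal protein genes all lay below 0 (median -0.83), with 0 called. With no filter on low values, 8 of 50 lay above 0 (median -0.19). With the zero at the genes in 90% of both sides, whose relative median was -0.56, 3 of 50 did (median -0.27).

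The leading genes were then looked at within the Sox9Y440X/+ cells alone, 11 Foxi1-high against 70 other epithelial cells. Here 181 of 3819 compared genes were higher (4.74%) and 188 lower (4.92%). Of the 143 genes higher over both genotypes, 128 were among the 181 (89.5% of the former and 70.7% of the latter), and 143 of 143 lay above 0. These counts share cells with the comparison over both genotypes. The 20 highest and 10 lowest named genes keep their sign here because the rule that chose them asks for it. Atp6v1c2 had 5.77, Nupr1 5.49, Coch 5.29, Atp6v0d2 5.27, Dcn 5.05, Muc20 4.92 and Slc26a4 4.47.

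In the wild-type cells alone, 5 against 27, 243 of 4827 compared genes were higher (5.03%) and 309 lower (6.4%). These cells took no part in choosing the 50 leading genes of the Sox9Y440X/+ cells. Read there, with the zero at the median of the same 3819 genes, 47 of the 50 lay above 0, and 27 (54%) were at 2 or more, against 232 of the 3819 genes (6.07%). Their median was 2.31, where that of the 3819 genes was 0 by construction. Atp6v1c2 had 5.43, Nupr1 2.88, Atp6v0d2 was detected in 3 of 5 and Slc26a4 and Coch in 2 of 5 wild-type Foxi1-high cells. The 3 genes not above 0 were Marc2 (-3.27), Ltv1 (-0.73) and Rpap3 (-0.08). With 5 wild-type cells, 2 of which lack the pump subunits, single values there rest on very few cells, and all 5 have a Y-linked gene and the title prefix P10. Sex, title prefix and genotype cannot be told apart here.

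**Figure D5:**
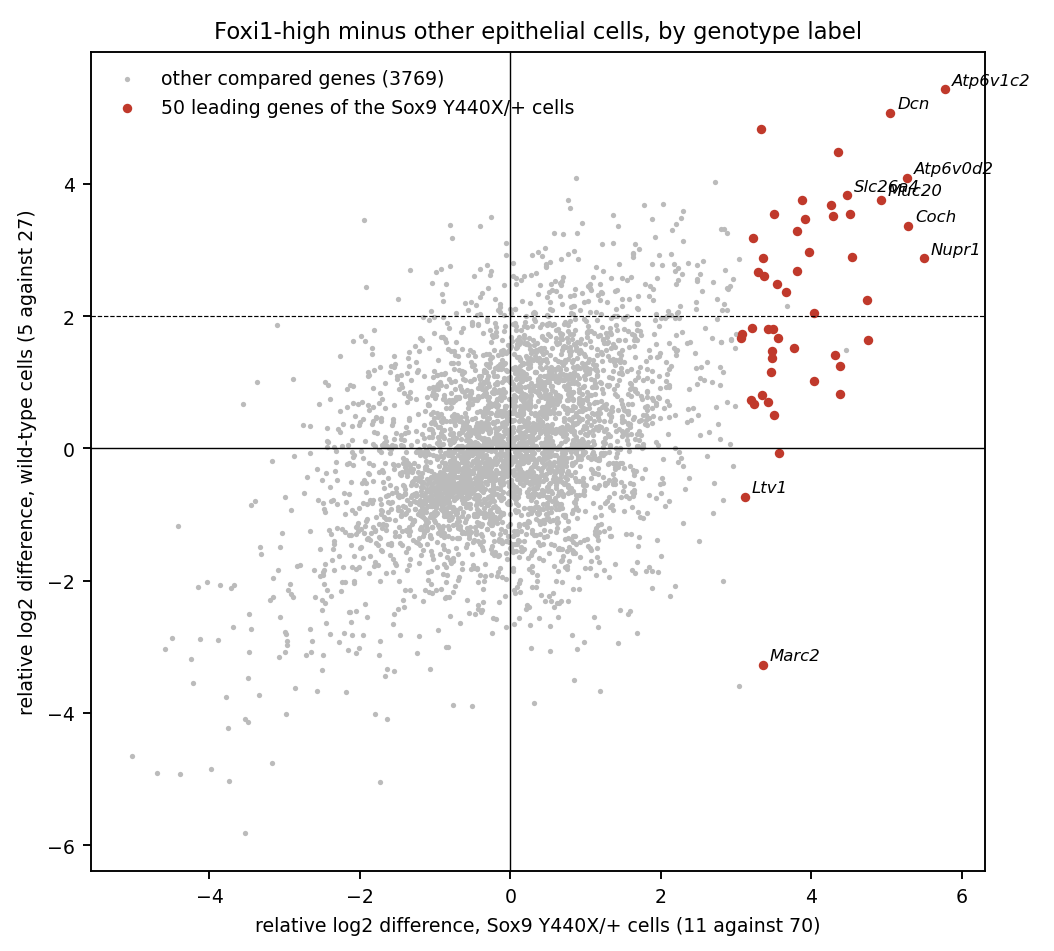
Relative log2 difference, Foxi1-high minus other epithelial cells, of 3819 genes in Sox9Y440X/+ cells (x axis, 11 against 70 cells) and wild-type cells (y axis, 5 against 27 cells); red points are the 50 leading genes of the Sox9Y440X/+ cells, predicted genes left out, and the dashed line marks 2. Of the red points, 47 lie above 0 and 27 above the dashed line, while Marc2 lies at -3.27.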

How the data were processed

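Single-cell RNA of 126 endolymphatic sac cells was read by Smart-seq2. The authors deposited 1 table of FPKM per gene and cell, with 48555 rows and 48490 gene identifiers, of which 49 had several rows that were summed here. HISAT2, SAMtools 0.1.18, Cufflinks, HTSeq and the build mm10 are named in the submitters' processing notes, without their roles. Neither an annotation release nor a strand setting was stated there or in the labels (not given in the sources used here), so overlapping genes are uncertain. FPKM carries no read number, so the depth per cell is unknown, and genes above 0 FPKM stand in for it. All 37 mitochondrial rows were at 0. Table starts are counted from 0 and are printed from 1.

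Groups follow the genotype labels. Each genotype is 1 sample with no named animals, so differences of mean log2(FPKM + 1), less their median over compared genes, are given without a test. Named are the 20 highest and 10 lowest compared genes that keep their sign and at least 50% of the difference in Sox9Y440X/+ cells alone and after rescaling each cell to 1000000, with predicted genes, pseudogenes, haemoglobins and sex-linked genes left out, besides list members. Members and lists were chosen with earlier results of these data known. Symbols not matched were Car5a, Cnmd and Cdt1. Alternatives covered pseudocounts, filters, scalings, the zero, side limits, genotypes, groups of cells and each Foxi1-high cell left out. The calculation was tested on the other epithelial cells split at random, with widely detected genes changed by a known fold. Genes detected on 1 side only were not covered by that test. Python 3.11.15, numpy 2.4.6, pandas 2.3.3, scipy 1.17.1 and matplotlib 3.10.9 were used. Doublets were not called, and the 13 cells of neither side were not compared. A few list members are not reported here.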

Additional observations from a re-analysis of the deposited data

Results flagged for a closer look

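Only named genes, list members and the 50 leading genes of the Sox9Y440X/+ cells were searched, so the share over all genes is unknown. Of those searched, 4 had Foxi1-high minus other epithelial differences that pointed opposite ways under the 2 genotype labels. Each did so by 1 or more, with the zero at each genotype's own compared genes. None of these differences between genotypes was tested, and with 5 wild-type Foxi1-high cells each rests on few cells. Marc2 had 3.35 in Sox9Y440X/+ cells (detected in 11 of 11 Foxi1-high and 28 of 70 others) and -3.51 in wild-type cells (2 of 5 and 21 of 27). Ocln, which encodes the tight junction protein occludin, had -1.94 (4 of 11 and 39 of 70) and 1.39 (5 of 5 and 16 of 27). Slbp, a histone mRNA-binding protein gene, had -1.09 (6 of 11 and 34 of 70) and 1.70 (5 of 5 and 14 of 27). Fen1, a DNA replication nuclease gene, had -1.08 (1 of 11 and 10 of 70) and 1.07 (3 of 5 and 3 of 27).

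Coch was also present outside the comparison. Of the 13 cells of neither side, 2 had it, at 91.7 and 66.5 FPKM, against 0 of 97 other epithelial cells.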

How the results depend on the processing

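The number of genes higher (143) and lower (127) moved by more than 1.5 times under several settings, and the cause was not tested. Higher genes numbered 312 with a pseudocount of 0.1, 27 with 10, 348 with no filter on low values, 223 with a mean of 5 FPKM, 215 with Foxi1 at 100 FPKM or more, 243 in wild-type cells alone and 291 with the zero at genes in 90% of both sides. Lower genes numbered 330 with a pseudocount of 0.1, 14 with 10, 66 with no filter, 43 with log2 mean FPKM, 223 with Foxi1 at 100 FPKM or more, 309 in wild-type cells alone and 63 with the zero at genes in 90% of both sides. Leaving out each Foxi1-high cell gave 121 to 157 higher and 110 to 147 lower genes. The 90% zero and the removal of cells summing to over 1000000 were chosen after seeing the data.

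The restricted V-ATPase median (3.25) became 6.52 with log2 mean FPKM, 4.94 with a pseudocount of 0.1, 1.68 with 10 (2 of 5 genes called) and 2.32 in wild-type cells alone (3 of 5 called), and was 3.04 to 3.54 with single cells left out. The ribosomal median (-0.83) became -1.31 and -0.42 with pseudocounts of 0.1 and 10, -0.19 with no filter, -0.40 with log2 mean FPKM and -0.27 with the 90% zero, and was -0.87 to -0.77 with single cells left out. The retinoic acid median (-1.21) became -2.03 and -0.50 with pseudocounts of 0.1 and 10 and -0.56 with no filter, and was -1.25 to -1.15 with single cells left out. The ubiquitous V-ATPase median (1.55) ran from 0.96 with log2 mean FPKM to 2.20 with no filter, the electron transport median (0.88) from 0.62 in wild-type cells alone to 1.53 with no filter, and the tricarboxylic acid cycle median (1.36) from 0.50 in wild-type cells alone, 0.75 with log2 mean FPKM and 0.85 with a pseudocount of 10 to 1.9995 with no filter. Single cells left out gave 1.43 to 1.59, 0.79 to 0.96 and 1.17 to 1.48.

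Of 990 values (30 named genes, 33 settings each), 990 had the sign given in the report and 984 were at 2 or more in size. The 6 others were Sh3bgrl2 1.91, Tmem213 1.87, Insrr 1.90 and Hmx2 1.82 with a pseudocount of 10, Serpinb9 1.40 in wild-type cells alone, and Rgcc -1.80 with log2 mean FPKM. Much of this was set in advance. The naming rule itself asks for the sign and at least 50% of the difference in Sox9Y440X/+ cells alone and after rescaling. Limits of Foxi1 at 1 FPKM and Epcam at 10 FPKM chose the same cells as the report. Another 16 settings left out only 1 Foxi1-high cell each. Shares of cells with Atp6v1c2, Atp6v0d2, Slc26a4 and Coch were the same above 0 and at 5 FPKM. With 100 leading genes, 45% were at 2 or more in wild-type cells, and 56% of 50 without the Sox9Y440X/+ cells that have a Y-linked gene. No paired analysis was possible because the result comes from no test and replicate numbers follow accession order only. Unknown depth limits every value at 0.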

Other observations

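Genes of G2 and M phase were sparse on both sides. Of 20 genes of G2 and M phase, 0 Foxi1-high cells had 3 or more at 1 FPKM, which allows a share of up to 18.75%, against 5 of 97 other epithelial cells. Genes of S phase were more common, with 3 or more of 19 in 12 of 16 Foxi1-high and 68 of 97 other cells. Immediate early genes, which cells induce within minutes of a stimulus, dissociation among them, were present on both sides. Their summed level was 545.3 to 4797 FPKM (median 1701) in Foxi1-high cells and 320.2 to 8706 FPKM (median 2639) in the others. Of 17 such genes, only Fos passed the limit, as lower in Foxi1-high cells. The part of handling in these values was not tested.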
